A study of Mus musculus with 8 samples.

Results

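Histone genes were followed through a loss of Rif1 in mouse embryonic stem cells. They were taken as every probe set whose annotation gave 1 symbol of the linker H1 family (H1f), of the replication-type core histones (H2ac, H2bc, H3c, H4c) or of the variants H2A.Z, H2A.J, H3.3 and macroH2A, with H2ax left out. This gave 31 of 45101 probe sets, for 21 of 18193 genes named by a single symbol. There were 9 linker probe sets for 6 genes, 9 core probe sets for 7 genes and 13 variant probe sets for 8 genes. The rule used gene names alone, but it was set with earlier results of these data known. After a filter on low signal (above the 40th percentile of an array on at least 2 arrays), 26 histone probe sets for 18 genes were tested.

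RNA was measured on 8 Affymetrix Mouse 430 2.0 arrays, in 4 groups of 2. J1 cells, of strain 129S4/SvJae, were transfected by lipofection with a control short hairpin RNA (shRNA) or with Rif1 shRNA and collected after 48 h. F1 cells, of C57BL/6xC3H background, carried control shRNA or a stable Rif1 shRNA and were collected at passage 16. All cells shared a culture on feeder plates, so each array could also hold feeder RNA. The labels of the F1 control arrays name control shRNA as what was transfected but list the stable knockdown as the line, and the treatment protocol speaks of virus or siRNA. The sources used here do not say whether the F1 cells are 1 clone. Nothing says that the 2 arrays of a group came from separate cultures, so the p-values rest on a spread between arrays that may be technical. Cell line, strain, delivery and duration all differ between J1 and F1 and cannot be told apart.

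The brightest Rif1 probe set read 2614 and 3222 in J1 controls against 1260 and 1297 with Rif1 shRNA, and 4231 and 4247 against 1339 and 1407 in F1, a fold of 0.472 and 0.299 on the normalized scale. The median deposited signal of an array was 61.0 to 69.3. All 10 stem cell markers passed the filter, and with Rif1 shRNA 0 rose and 0 fell in J1 (1 and 2 at an unadjusted p under 0.05, limma), while 1 rose (Tdgf1) and 5 fell (Esrrb, Sox2, Zfp42, Fgf4 and Utf1) in F1. Over all probe sets tested, 1.44% rose and 1.74% fell in J1, and 8.28% rose and 6.81% fell in F1. Of 15 feeder fibroblast markers tested, 3 fell in J1 (Acta2, Tagln and S100a6) and 13 rose in F1, and none was at 0 (the lowest signal, of Cdh11, was 8.74). Their summed signal was 16085 and 15216 in J1 controls and 14243 and 14201 with Rif1 shRNA in J1. It was 19731 and 19622 in F1 controls and 37624 and 36179 with Rif1 shRNA in F1. These deposited sums do not compare J1 with F1. On the normalized scale the control sums were 19690 and 18716 in J1 and 15708 and 15688 in F1. The actin 3′ to 5′ ratio, a sign of RNA quality, was 2.71 and 2.61 in J1 controls, 2.18 and 2.17 with Rif1 shRNA in J1, and 1.33 to 1.41 on F1 arrays. Both measures moved with Rif1 shRNA in at least 1 setting, and their part in the histone values was not tested. In such bulk samples, fewer cells of a type and less RNA per cell cannot be told apart.

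Nucleosomes are built from the core histones H2A, H2B, H3 and H4, and linker histone H1 binds where DNA enters and leaves them. Replication-type histone genes lie in clusters and are expressed in S phase, and their mRNAs usually end in a stem loop instead of a poly(A) tail. Variant histones such as H2A.Z, H3.3 and macroH2A are made outside S phase too, from ordinary polyadenylated mRNAs. The labels cite only the manufacturer's manual for labelling. How well an array reads mRNAs without a poly(A) tail depends on the primer used, which the sources used here do not name.

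Of the linker and core genes measured, 7 lie on chromosome 13, 3 on chromosome 3, 2 on chromosome 6 and 1 on chromosome 15. The linker gene with the largest rise, H1f2, is shown with the 2 other measured linker genes of chromosome 13, H1f4 and H1f6, which did not pass the test. In the RefSeq order 3 genes lie between H1f2 and H1f6, 3 between H1f6 and H1f4, and 7 between H1f2 and H1f4. The stretches run from 130 bases before the transcription start to 50 bases after it, 5′ to 3′ on the gene's strand, from RefSeq on GRCm38.p6. Capitals mark the letters AAACACA, known as the H1 box of linker histone genes, and CCAAT.
H1f2, chr13:23738677-23738856, plus strand: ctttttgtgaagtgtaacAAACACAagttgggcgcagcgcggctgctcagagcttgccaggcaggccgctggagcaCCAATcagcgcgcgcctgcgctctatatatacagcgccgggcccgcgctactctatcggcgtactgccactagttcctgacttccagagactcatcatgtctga
H1f4, chr13:23622509-23622688, minus strand: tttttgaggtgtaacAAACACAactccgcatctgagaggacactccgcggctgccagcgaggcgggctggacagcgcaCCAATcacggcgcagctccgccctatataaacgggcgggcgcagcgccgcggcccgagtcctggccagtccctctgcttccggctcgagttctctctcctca
H1f6, chr13:23695681-23695860, plus strand: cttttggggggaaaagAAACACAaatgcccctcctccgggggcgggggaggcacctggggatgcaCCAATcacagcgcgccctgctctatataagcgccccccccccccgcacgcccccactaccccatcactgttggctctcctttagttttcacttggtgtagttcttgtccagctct

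The H1 box began at position -112 in H1f2, -115 in H1f4 and -114 in H1f6, and CCAAT at -54, -52 and -65. All 3 stretches held both words in the same order, in H1f2, which rose, as in H1f4 and H1f6, which passed no test. RefSeq windows of 300 bases were found for 18 of the 21 histone genes, including all 6 linker genes, and H1f10, H1f7 and H1f8 held no AAACACA in theirs. Over 32851 such windows, 7.18% held AAACACA and 37.4% held CCAAT on either strand, and 0.801% held both on the gene's own strand. The 2 words share no letters in these stretches. A match describes letters and is not a binding site.

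Among the probe sets of a single histone gene, the largest change was of the linker gene H1f2. Of 7 linker probe sets tested, 3 rose and 0 fell in J1 and 2 rose and 0 fell in F1, at an adjusted p under 0.05 (limma, Benjamini-Hochberg over all 31605 probe sets). These counts stand against 1.44% of all probe sets that rose in J1 and 8.28% in F1. Both F1 rises, and every J1 rise but that of H1f10, were of probe sets of the single gene H1f2. The median log2 fold change of the linker probe sets was 0.20 in J1 (range -0.09 to 1.99) and 0.05 in F1 (range -0.15 to 1.73), against -0.0014 and -0.03 over all probe sets tested. All fold changes were taken from quantile-normalized log2(signal + 18), a scale that understates changes of dim genes, while the signals given are as deposited. At an unadjusted p under 0.05 the counts of falls were also 0 in both settings (limma).

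H1f2 encodes the somatic linker histone H1.2. The H1f2 probe set with the larger change, 1416101_a_at, read 126 and 126 in J1 controls and 503 and 461 with Rif1 shRNA in J1, then 249 and 259 in F1 controls and 1057 and 954 with Rif1 shRNA in F1. Both Rif1 shRNA arrays lay far above both controls in each setting. The rise was 1.99 in log2 in J1 (SE 0.09, adjusted p = 6.15e-07, limma) and 1.73 in F1 (SE 0.09, adjusted p = 5.86e-07). That is 3.97-fold and 3.32-fold, and without any 1 array the adjusted p stayed at or under 0.000061. The 2 rises differed by -0.26 (F1 minus J1, SE 0.12, adjusted p = 0.255), a difference that did not pass the test.

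The brightest H1f2 probe set, 1436994_a_at, gave the same pattern. It read 242 and 223 in J1 controls, 858 and 844 with Rif1 shRNA in J1, 192 and 146 in F1 controls and 706 and 605 with Rif1 shRNA in F1. Its rise was 3.64-fold in J1 (log2 1.86, adjusted p = 1.52e-05, limma) and 3.06-fold in F1 (log2 1.61, adjusted p = 5.36e-06). The third, 1438204_at, disagreed with them. It read 63.4 and 61.4 against 69.7 and 81.3 in J1, and 56.5 and 59.6 against 70.7 and 61.6 in F1, with changes of 0.20 (adjusted p = 0.380) and 0.12 (adjusted p = 0.572). Its Rif1 shRNA arrays were above its controls in both settings, by less than the test could separate.

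H1f10 encodes H1.10, a linker histone divergent from the main family. It read 708 and 685 in J1 controls and 840 and 1153 with Rif1 shRNA in J1, a rise of 0.50 in log2 (SE 0.12, 1.41-fold, adjusted p = 0.0445, limma). In F1 it read 386 and 427 in controls and 433 and 456 with Rif1 shRNA, a change of 0.05 (adjusted p = 0.851). The groups lay apart in J1 and overlapped in F1 after normalization, and the 2 effects differed by -0.45 (F1 minus J1, adjusted p = 0.130), which did not pass. The J1 call was narrow. It was lost when only the 4 J1 arrays were fitted (adjusted p = 0.0955), and without each array other than the first J1 Rif1 shRNA array (adjusted p from 0.0692 to 0.220).

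H1f4, which encodes H1.4, read 55.1 and 60.5 in J1 controls and 67.5 and 71.7 with Rif1 shRNA, then 44.5 and 61.8 in F1 controls and 43.0 and 47.4 with Rif1 shRNA. Its changes were 0.20 in J1 (adjusted p = 0.509) and -0.15 in F1 (adjusted p = 0.553). The groups did not overlap in J1 and overlapped in F1. H1f6, the testis linker histone, read 93.1 and 82.4 against 85.6 and 111 in J1 and 42.2 and 47.7 against 42.8 and 39.5 in F1. Its groups overlapped in both settings, with changes of 0.10 (adjusted p = 0.716) and -0.08 (adjusted p = 0.731). H1f7, another linker histone of male germ cells, read 46.6 and 41.4 against 41.5 and 41.4 in J1 and 58.9 and 72.5 against 70.1 and 62.5 in F1. Neither change of H1f7 passed, at -0.09 (adjusted p = 0.729) and -0.0007 (adjusted p = 0.998). H1f8, the oocyte linker histone, and a second H1f7 probe set were below the filter.

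**Figure D1:**
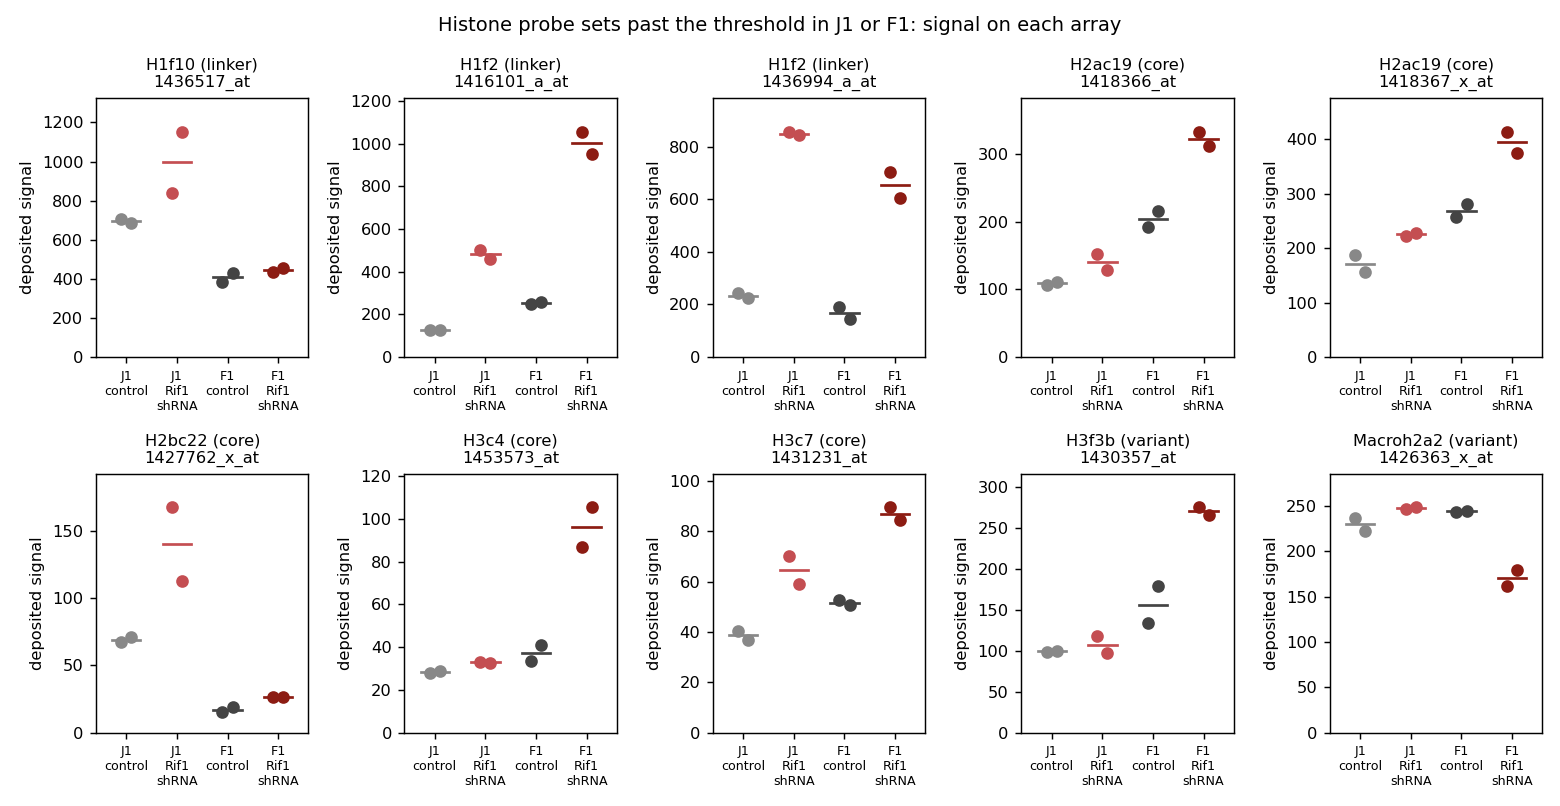
Deposited signal (linear axis from 0, a scale of its own in each panel) on each array for the 10 histone probe sets that passed the test in J1 or F1, with points for arrays and lines for the mean of 2. Both H1f2 probe sets are separated by Rif1 shRNA in both settings (126 and 126 against 503 and 461 in J1 at 1416101_a_at). H3c4, H3f3b and Macroh2a2 passed the test in F1 and not in J1.

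Every core replication-type probe set that passed the test rose. Of 6 core probe sets tested, 2 rose and 0 fell in J1, where 1.44% of all probe sets rose and 1.74% fell. In F1, 4 rose and 0 fell, where 8.28% of all probe sets rose and 6.81% fell. One of the F1 rises, H3c4, reached the filter only on F1 Rif1 shRNA arrays, and without it 3 of 5 rose in F1 and the median there was 0.41. With it, the median log2 fold change of the 6 was 0.38 in J1 (range -0.25 to 0.96) and 0.44 in F1 (range -0.02 to 0.90). Both Rif1 shRNA arrays lay above both controls at 5 of 6 core probe sets in J1 and 5 of 6 in F1, where 18.8% and 28.4% of all probe sets did so. H3c4 is among the 5 in each setting. At an unadjusted p under 0.05, 2506 of all 31605 probe sets rose in J1 and 4199 in F1 (limma). At that threshold the core probe sets had 4 rises and 0 falls in each setting. Several of these signals were near the filter, and most calls depended on single arrays.

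H3c7, a replication-type H3 gene, passed in both settings. It read 40.3 and 36.8 in J1 controls and 69.9 and 58.9 with Rif1 shRNA, a rise of 0.58 in log2 (SE 0.13, 1.49-fold, adjusted p = 0.0348, limma). In F1 it read 52.5 and 50.7 in controls and 89.4 and 84.5 with Rif1 shRNA, a rise of 0.50 (SE 0.13, 1.41-fold, adjusted p = 0.0214). No control array reached a Rif1 shRNA array of its setting. The J1 call was lost in the fit of the 4 J1 arrays (adjusted p = 0.138) and without each array other than the second J1 Rif1 shRNA array (0.0662 to 0.153). The F1 call was lost without each F1 array (0.102 to 0.160).

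H3c4, another H3 gene, read 27.9 and 28.8 in J1 controls, 33.2 and 32.6 with Rif1 shRNA in J1, 33.4 and 41.2 in F1 controls, and 86.9 and 105 with Rif1 shRNA in F1. The arrays did not overlap in either setting, and the F1 Rif1 shRNA arrays stood well above the rest. The change was 0.12 in J1 (adjusted p = 0.651, limma) and a rise of 0.90 in F1 (SE 0.12, 1.87-fold, adjusted p = 0.000382). The F1 effect exceeded the J1 effect by 0.78 (SE 0.17, adjusted p = 0.0142). H3c4 passed the filter only through its 2 F1 Rif1 shRNA arrays, so a difference was built into its being tested, and it was not tested without either of them. Without the second J1 control or the first F1 control, the difference no longer passed (adjusted p = 0.0542 and 0.0752).

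H2bc22, an H2B gene, read 67.4 and 71.1 in J1 controls and 168 and 113 with Rif1 shRNA, a rise of 0.96 in log2 (SE 0.20, 1.95-fold, adjusted p = 0.0257, limma). In F1 it read 15.2 and 18.8 in controls and 26.8 and 26.2 with Rif1 shRNA, a change of 0.33 (adjusted p = 0.319). The Rif1 shRNA arrays were the higher ones in both settings, although F1 signals lay below the filter. The J1 call was lost in the fit of the 4 J1 arrays (adjusted p = 0.0717) and without the first or second J1 control (0.129 and 0.102). In the fit of the 4 F1 arrays alone H2bc22 passed in F1 (adjusted p = 0.0346). This is an _x_at probe set, a type that can cross-hybridise with related genes.

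H2ac19, an H2A gene, was read by 2 probe sets, and both rose in F1. The first, 1418366_at, read 106 and 112 against 152 and 128 in J1 and 192 and 217 against 334 and 313 in F1. The second, 1418367_x_at, is of the _x_at type, which can cross-hybridise with related genes. It read 187 and 156 against 222 and 229 in J1 and 257 and 280 against 414 and 375 in F1. Every Rif1 shRNA array lay above its controls. In F1 the rises were 1.39-fold (log2 0.47, adjusted p = 0.0306, limma) and 1.33-fold (log2 0.41, adjusted p = 0.0220), and in J1 the changes were 0.34 (adjusted p = 0.201) and 0.41 (adjusted p = 0.0613). Without any 1 F1 array neither H2ac19 call held (adjusted p from 0.104 to 0.226 and from 0.0770 to 0.236).

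H2bc18, another H2B gene, was the core probe set with no rise in either setting. It read 80.6 and 66.8 against 55.4 and 72.7 in J1 and 15.1 and 17.6 against 16.5 and 15.3 in F1, and its changes were -0.25 (adjusted p = 0.297) and -0.02 (adjusted p = 0.955). Below the filter were both H2bc21 probe sets and the H3c11 probe set. H2bc21 at 1447854_s_at read 13.7 and 12.5 against 14.5 and 16.3 in J1 and 20.0 and 17.2 against 43.9 and 52.1 in F1. With no filter its F1 change was 0.79 (adjusted p = 0.000373), on signals of which 1 of 8 passed the 40th percentile. H3c11 read 27.7 to 47.2 on all arrays.

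Among variant histones, H3f3b rose and Macroh2a2 fell in F1, and the share of probe sets called was near that of the whole array. Of 13 variant probe sets, all of which passed the filter, 0 rose and 0 fell in J1 (also 0 at an unadjusted p under 0.05, limma), where 3.18% of all probe sets passed in either direction. In F1, 1 rose and 1 fell, where 15.1% of all probe sets passed, so neither count sets the class apart. Both F1 Rif1 shRNA arrays lay above both controls at 5 variant probe sets and below them at 3, where 28.4% and 35.5% of all probe sets did so. Among the 5, H2aj at 1440252_at reached the filter on Rif1 shRNA arrays only, which favours a rise. The median log2 fold change was 0.05 in J1 (range -0.20 to 0.26) and 0.07 in F1 (range -0.44 to 0.58). Neither median had a settled direction, being -0.0058 in J1 without the first J1 control and -0.0926 in F1 with 1 value per gene.

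H3f3b, one of 2 genes for the replication-independent H3.3, rose in F1. It read 98.9 and 99.9 against 118 and 96.7 in J1, and 134 and 178 against 275 and 265 in F1. The groups overlapped in J1 (change 0.05, adjusted p = 0.903) and were apart in F1 (rise 0.58, SE 0.15, 1.49-fold, adjusted p = 0.0246, limma). The 2 effects differed by 0.53 (F1 minus J1, SE 0.21, adjusted p = 0.171), which did not pass. The F1 call was lost without the first F1 control or without either F1 Rif1 shRNA array (0.116 to 0.218). H3f3a, the other H3.3 gene, read 119 and 140 against 120.0 and 113 in J1 and 488 and 549 against 378 and 436 in F1. Its F1 arrays were lower with Rif1 shRNA, with changes of -0.20 in J1 (adjusted p = 0.485) and -0.38 in F1 (adjusted p = 0.0794). In the fit of the 4 F1 arrays alone the H3f3a change passed (adjusted p = 0.0139).

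MacroH2A variants carry a large non-histone domain and are known from the inactive X chromosome and other silent chromatin. Macroh2a2 read 237 and 222 against 246 and 248 in J1, and 243 and 245 against 162 and 179 in F1. Its only single-gene probe set is of the _x_at type, which can cross-hybridise with related genes. Both F1 Rif1 shRNA arrays lay below all 6 other arrays. The fall in F1 was -0.44 in log2 (SE 0.09, 1.36-fold lower, adjusted p = 0.00654, limma), the J1 change was 0.12 (adjusted p = 0.565), and the F1 effect lay below the J1 effect by -0.56 (SE 0.13, adjusted p = 0.0205). The F1 fall no longer passed without either F1 control or without the first F1 Rif1 shRNA array (0.0544 to 0.115). The difference no longer passed without the second J1 control or without any 1 F1 array (0.0629 to 0.145).

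Macroh2a1, the most studied macroH2A gene, read 1616 and 1677 against 1456 and 1892 in J1 and 2281 and 2634 against 2320 and 2309 in F1, with changes of 0.006 (adjusted p = 0.985) and -0.12 (adjusted p = 0.556). Its groups overlapped in both settings. Macroh2a3 at its brightest probe set read 266 and 235 against 257 and 297 in J1 and 122 and 114 against 97.9 and 106 in F1. Its groups overlapped in J1 and its F1 Rif1 shRNA arrays lay below the controls, with changes of 0.15 (adjusted p = 0.542) and -0.18 (adjusted p = 0.345) that did not pass. Its other probe set, below the filter on the F1 arrays, had changes of 0.22 (adjusted p = 0.480) and 0.09 (adjusted p = 0.766).

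H2A.Z replaces H2A at promoters and is encoded by H2az1 and H2az2. H2az1 read 9057 and 9431 against 9441 and 9307 in J1 and 5822 and 6023 against 6194 and 6235 in F1, with changes of 0.01 (adjusted p = 0.933) and 0.06 (adjusted p = 0.365). H2az2 at its brightest probe set read 5163 and 4944 against 5555 and 5144 in J1 and 3858 and 4104 against 3778 and 3923 in F1, with changes of 0.07 (adjusted p = 0.578) and -0.07 (adjusted p = 0.461). These are among the brightest histone probe sets, and none of these changes passed. The dimmer H2az2 probe set, 1436596_at, read 277 and 302 against 309 and 277 in J1 and 156 and 152 against 202 and 205 in F1. Its groups overlapped in J1 and its F1 Rif1 shRNA arrays lay above the controls. Its changes were 0.02 (adjusted p = 0.948, limma) and 0.26 (adjusted p = 0.104), and neither passed. The F1 change passed with only the F1 arrays (adjusted p = 0.0282), as deposited (0.0145) and with normalization within each setting (0.0353). H2aj, which encodes the H2A.J variant, read 2227 and 2069 against 2125 and 2188 in J1 and 1784 and 1683 against 1926 and 1803 in F1, with changes of -0.008 (adjusted p = 0.967) and 0.07 (adjusted p = 0.566).

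**Figure D2:**
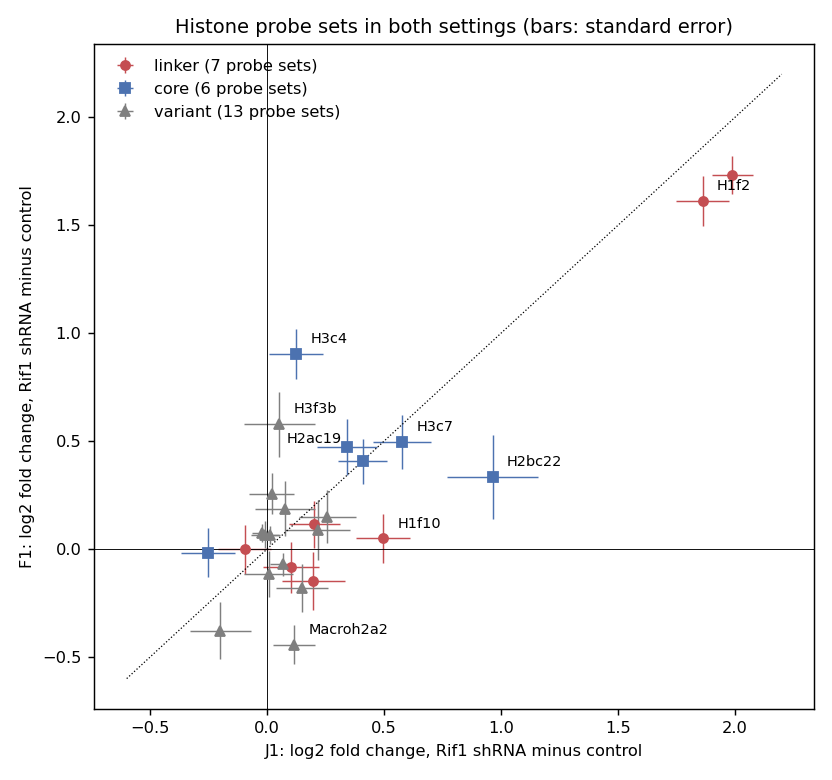
Log2 fold change (Rif1 shRNA minus control) of the 26 tested histone probe sets in J1 on the horizontal axis and in F1 on the vertical axis, coloured by class, with standard errors as bars and equal change as the dotted line. The 2 responsive H1f2 probe sets stand apart at the upper right (1.99 and 1.73 for 1416101_a_at), and Macroh2a2 (0.12 and -0.44) and H3c4 (0.12 and 0.90) lie off the line.

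Across the 26 tested histone probe sets, 18 had a fold change of the same sign in J1 and F1, which have separate controls, whether or not either passed the test. That is 69.2%, against 52.0% of all 31605 probe sets. The correlation across these probe sets was 0.831 (Pearson) and 0.541 (Spearman). Without the 3 H1f2 probe sets it was 0.387 and 0.391 over 23. Probe sets of 1 gene share their transcript, and all share the normalization, so these are descriptions. For the difference between F1 and J1, 1 histone probe set was higher (H3c4) and 1 lower (Macroh2a2), where 4.99% of all probe sets were higher and 3.37% lower, 8.37% in all.

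A further 16 probe sets matched several histone genes at once and name no single gene. They are outside the 31, and those described were chosen after their values were seen. Of 12 tested, 4 rose and 0 fell in J1, where 1.44% of all probe sets rose and 1.74% fell. In F1, 7 rose and 1 fell, where 8.28% of all probe sets rose and 6.81% fell. The median log2 fold change of the 12 was 0.39 in J1 and 0.72 in F1, against -0.0014 and -0.03 over all probe sets tested. Among the 12, 1442051_at and 1428014_at reached the filter on Rif1 shRNA arrays only, which favours a rise. Without both of them 4 of 10 rose in J1 and 5 in F1, with medians of 0.41 and 0.41. By family, the 4 tested H4 probe sets had 2 rises in J1 and 4 in F1 (3 of 3 without 1428014_at). The 4 tested H3 probe sets had 1 rise in J1 and 2 in F1 (1 of 3 without 1442051_at). The 2 tested H2B probe sets had 1 rise in each setting. The 2 tested H2A probe sets had no rise and 1 fall, in F1.

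The probe set 1418072_at, shared by 3 H2B genes, read 138 and 124 in J1 controls and 546 and 488 with Rif1 shRNA, then 410 and 403 in F1 controls and 1653 and 1436 with Rif1 shRNA. Rif1 shRNA arrays were several times the controls in both settings, 4.07-fold in J1 (log2 2.03, adjusted p = 6.96e-07, limma) and 3.43-fold in F1 (log2 1.78, adjusted p = 6.38e-07). The other tested probe set of the same 3 genes, 1445565_at, disagreed, reading 115 and 83.6 against 75.8 and 121.1 in J1 and 90.4 and 87.4 against 107 and 91.2 in F1. Its groups overlapped, and its changes were -0.09 (adjusted p = 0.858) and 0.08 (adjusted p = 0.844). None of the 31 probe sets is of an H4 gene, but 1424854_at, shared by 13 H4 genes, read 160.0 and 151 against 381 and 344 in J1 and 264 and 236 against 960 and 906 in F1. It rose 2.38-fold in J1 (log2 1.25, adjusted p = 6.54e-05) and 3.14-fold in F1 (log2 1.65, adjusted p = 9.25e-07). A second H4 probe set, 1422948_s_at, read 599 and 566 against 1171 and 986 in J1 and 863 and 904 against 2347 and 2045 in F1, and rose by 0.87 (adjusted p = 0.000984) and 1.27 (adjusted p = 6.24e-06). No control reached a Rif1 shRNA array of its setting at 1418072_at and these 2 H4 probe sets, and their calls held without each array in turn.

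Other shared probe sets split between the settings. The probe set 1442051_at, shared by 8 H3 genes, read 43.6 and 45.9 against 45.3 and 56.2 in J1 and 19.4 and 21.1 against 85.0 and 84.7 in F1. It rose in F1 and by more than in J1 (0.10 in J1, adjusted p = 0.703, 1.28 in F1, adjusted p = 2.02e-05, difference 1.18, adjusted p = 0.000948, limma). It passed the filter on 3 arrays, all of them Rif1 shRNA arrays, which favours a difference. The probe set 1427864_at, shared by 12 H3 genes, rose by 0.67 in F1 (adjusted p = 0.00258, limma), from controls below the filter. Its J1 change of 0.44 (adjusted p = 0.0699) and its difference of 0.23 (adjusted p = 0.463) did not pass. The probe set 1460314_s_at, shared by the same 12 H3 genes, disagreed with it. It read 416 and 403 against 804 and 621 in J1 and 895 and 1046 against 1226 and 1005 in F1. It rose by 0.80 in J1 (adjusted p = 0.00821, and 0.0527 and 0.0828 without either J1 control), its F1 groups overlapped (0.15, adjusted p = 0.519), and its difference was -0.65 (adjusted p = 0.0470). That difference no longer passed without any 1 array other than the second J1 Rif1 shRNA array or the first F1 Rif1 shRNA array (0.0647 to 0.203).

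The abundant probe set 1438009_at, shared by 10 H2A genes, read 14179 and 14334 against 16270 and 15032 in J1 and 12869 and 13966 against 14359 and 14783 in F1. Rif1 shRNA arrays were above controls in both, by 0.12 (adjusted p = 0.239, limma) and 0.14 (adjusted p = 0.0774), and neither passed. The probe set 1421612_a_at, shared by 2 macroH2A genes, changed by 0.13 in J1 (adjusted p = 0.506) and fell by 0.41 in F1 (adjusted p = 0.0108), as Macroh2a2 did. That fall no longer passed without any 1 F1 array (0.0755 to 0.107).

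**Figure D3:**
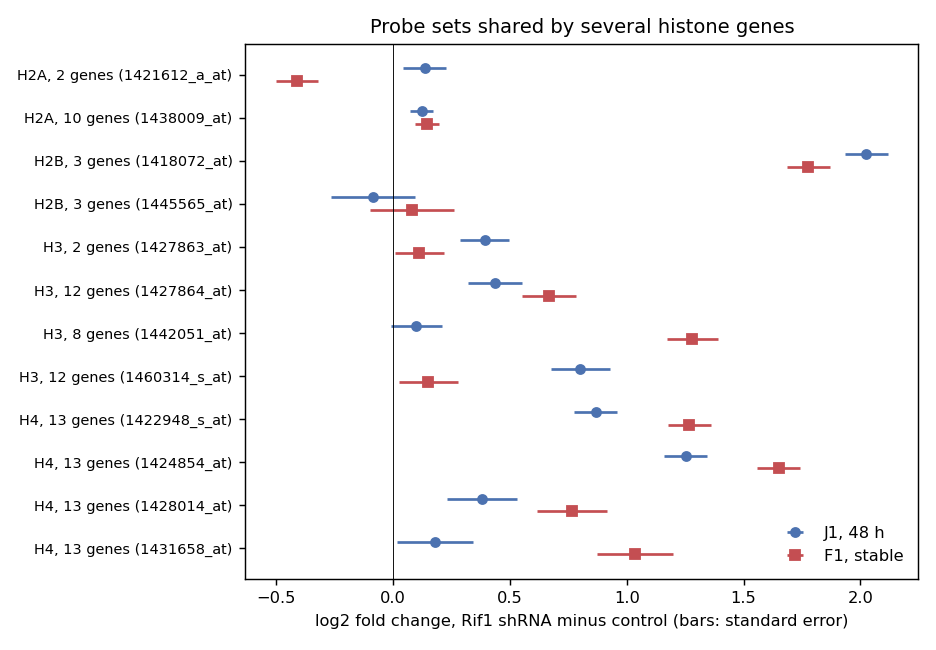
Log2 fold change (Rif1 shRNA minus control, bars for the standard error) in J1 (circles) and in F1 (squares) of the 12 tested probe sets that match several histone genes, by family. The H2B probe set 1418072_at (2.03 and 1.78) and the 4 H4 probe sets lie to the right of 0, and the macroH2A probe set 1421612_a_at lies to the left in F1 (-0.41).

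Genes that serve the supply of histones, and S phase markers, were read from 3 lists. Ccne2 is on the first list and also on that of S phase markers. Of 20 tested genes of histone gene transcription and mRNA 3′ end processing, 0 rose and 0 fell in J1 (2 and 3 at an unadjusted p under 0.05, limma) and 1 rose and 4 fell in F1, where 8.28% of all probe sets rose and 6.81% fell. Ccne2, which encodes cyclin E2, rose by 0.37 (adjusted p = 0.0193, limma). Cpsf3, the endonuclease that cuts histone pre-mRNA, changed by -0.31 (adjusted p = 0.00410) and Lsm11, a U7 snRNP protein, by -0.44 (adjusted p = 0.0138). Zfp473, whose human counterpart acts in histone pre-mRNA processing, changed by -0.48 (adjusted p = 0.0113) and Ccne1, which encodes cyclin E1, by -0.25 (adjusted p = 0.0129). Of these 5, the call of Cpsf3 was lost without the second F1 Rif1 shRNA array (0.0603). Those of Ccne1 and Ccne2 were lost without the second F1 control or either F1 Rif1 shRNA array (0.0646 to 0.157 and 0.110 to 0.183), and those of Zfp473 and Lsm11 without any 1 F1 array (0.0748 to 0.107 and 0.0698 to 0.127). The median of the list was -0.03 in J1 and -0.02 in F1.

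Of 30 tested histone chaperones and exchange factors, 0 rose and 1 fell in J1 and 0 rose and 7 fell in F1, with 2 rises at an unadjusted p under 0.05 in each setting (limma). Over all probe sets 1.74% fell in J1 and 6.81% in F1. The J1 fall was of Ipo9, an importin for histones, at -0.29 (adjusted p = 0.0463, limma, and 0.190 with only the J1 arrays). It was also lost without any 1 array other than the first J1 Rif1 shRNA array (0.0676 to 0.195). In F1 Hat1, which acetylates new H4, fell by 0.42 (adjusted p = 0.000194) and Anp32e, an H2A.Z chaperone, by 0.41 (adjusted p = 0.000294). Chaf1b, a subunit of the assembly factor CAF-1, fell by 0.56 (adjusted p = 0.000821) and Nasp, an H3 and H4 chaperone, by 0.35 (adjusted p = 0.00204). The median of the list was -0.07 in J1 and -0.15 in F1.

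Since replication-type histone genes are expressed in S phase, 23 S phase markers were set beside them. In J1, 0 rose (2 at an unadjusted p under 0.05) and 2 fell, the helicase subunits Mcm5 (-0.20, adjusted p = 0.0267, limma) and Mcm4 (-0.22, adjusted p = 0.0493), and both lost their call with only the J1 arrays (0.112 and 0.186). Without any 1 J1 control or F1 array Mcm5 did not pass (0.0520 to 0.112), nor did Mcm4, which was also lost without the second J1 Rif1 shRNA array (0.0662 to 0.243). Over all probe sets 1.74% fell in J1 and 6.81% in F1. In F1, 1 rose (Ccne2) and 11 fell, among them Uhrf1, the maintenance methylation factor (-0.54, adjusted p = 0.000148), and Pola1, the catalytic subunit of polymerase alpha (-0.53, adjusted p = 0.000282). Rrm2, a subunit of ribonucleotide reductase, changed by -0.34 (adjusted p = 0.000416) and Ung, uracil DNA glycosylase, by -0.44 (adjusted p = 0.000506). The summed signal of the S phase markers was 52030 and 51989 in J1 controls, 50429 and 49787 with Rif1 shRNA in J1, 76268 and 75998 in F1 controls, and 69668 and 69241 with Rif1 shRNA in F1. The Rif1 shRNA arrays had the lower sum in both settings. These deposited sums do not compare J1 with F1. On the normalized scale the control sums were 62770 and 62582 in J1 and 63739 and 63988 in F1. On the F1 arrays the summed feeder marker signal was 19731 and 19622 in controls and 37624 and 36179 with Rif1 shRNA, and its part in these values was not tested.

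**Figure D4:**
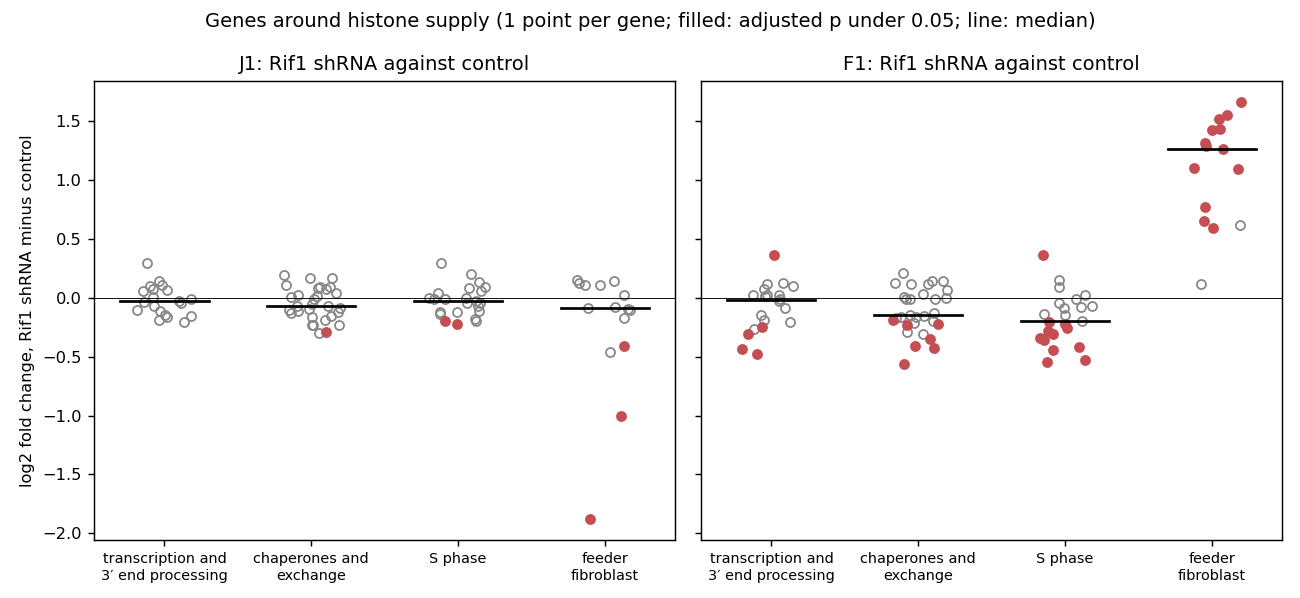
Log2 fold change (Rif1 shRNA minus control) in J1 and in F1 of each tested gene of the 3 histone supply and S phase lists and of the feeder fibroblast markers, with 1 point per gene, filled where the adjusted p was under 0.05, and a line at the median. The medians of the 3 lists lie between -0.20 and -0.02, and the feeder median is -0.09 in J1 and 1.27 in F1.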

How the data were processed

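RNA of 8 arrays was extracted with Trizol and biotin-labelled, per the labels. The authors made linear intensity signals with MAS5, per the submitters' processing notes, whose version the sources used here do not give. The number of arrays limits the precision.

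Here the values were taken as log2(signal + 18), 18 being the 10th percentile of all values, and quantile normalized over the 8 arrays. The 64 control probe sets were left out, and 31605 probe sets above the 40th percentile on at least 2 arrays were tested. Group means were fitted with limma 3.58.1 in R 4.3.3 (eBayes with trend, 4 residual and 6.94 prior degrees of freedom), two-sided, at a Benjamini-Hochberg adjusted p under 0.05. The fit was tested on simulated data, and the recovery asked of it was lowered after 1 simulated set fell short of the first bar. One spread served both settings, although the median residual SD was 0.115 in J1 and 0.0658 in F1, so J1 calls are lenient.

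Gene names came from the platform annotation, which is old; all 21 histone symbols matched RefSeq. Values are given for each tested linker and variant gene at its brightest probe set and any that differs in call, for core genes past the threshold, and for up to 4 list genes per setting with the smallest p. H2bc18, H2bc21, H3c11, the H1f2 probe set 1416101_a_at and the dimmer H2az2 and Macroh2a3 probe sets were chosen after their values were seen. So were the probe sets of several genes. Members and lists were chosen with earlier results of these data known. Alternatives were other scalings, offsets, filters, spreads, thresholds, a replicate block and each array left out. Figures used matplotlib 3.10.9.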

Additional observations from a re-analysis of the deposited data

Results flagged for a closer look

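At 6 histone probe sets the F1 and J1 effects of Rif1 shRNA differed in a direct test (limma, adjusted p under 0.05). No cause was tested. Of 26 single-gene probe sets 1 was higher and 1 lower, and of 12 several-gene probe sets 2 were higher and 2 lower. Over all probe sets tested 8.37% passed, 4.99% higher and 3.37% lower, so the single-gene count was near that share. Of single genes, H3c4 was higher in F1 than in J1 by 0.78 in log2, but it reached the filter only on its 2 F1 Rif1 shRNA arrays, so a difference was built into its being tested. Macroh2a2 was lower in F1 than in J1, by -0.56. Among probe sets of several genes, 1442051_at (8 H3 genes) differed by 1.18 and 1431658_at (13 H4 genes) by 0.85, both with the larger effect in F1, and the first reached the filter on Rif1 shRNA arrays only. The other 2 were lower in F1, 1460314_s_at (12 H3 genes) by -0.65 and 1421612_a_at (2 macroH2A genes) by -0.55. The other tested probe set of the same 12 H3 genes, 1427864_at, differed by 0.23, which did not pass (adjusted p = 0.463, limma). Of these 6, the difference at 1442051_at passed without each array in turn, and the others were lost without at least 1 array.

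The H4 probe set 1431658_at read 55.9 and 43.7 in J1 controls, 69.9 and 48.7 with Rif1 shRNA in J1, 22.5 and 18.8 in F1 controls, and 68.0 and 65.5 with Rif1 shRNA in F1. Its J1 arrays overlapped between groups and its F1 arrays did not (log2 change 0.18 and 1.03). Its difference had an adjusted p of 0.0440, and 0.0675 to 0.155 without any 1 array other than the first J1 Rif1 shRNA array. For 1421612_a_at the difference was lost without any 1 array other than the 2 J1 Rif1 shRNA arrays (0.0571 to 0.128).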

How the results depend on the processing

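H1f2 at 1416101_a_at kept its call in all 18 alternatives run in each setting, between 1.70 and 2.11 in J1 and between 1.52 and 1.91 in F1, as did 1436994_a_at. The 5 J1 rises became 2 with no intensity trend, the replicate block, only the J1 arrays or an adjusted p under 0.01. The 2 left in those settings were both of H1f2, so no core gene kept its J1 call there. The J1 rises became 9 with probe sets of several genes counted too (added after the data were seen). Without 1 array they were 2 (without either J1 control) to 5, and J1 falls were 0 to 0. The 7 F1 rises became 4 with the replicate block, 3 at an adjusted p under 0.01 and 14 with several-gene probe sets, and 2 (without either F1 Rif1 shRNA array) to 8 without 1 array. The 1 F1 fall became 2 as deposited, with normalization within each setting, with only the F1 arrays and with several-gene probe sets, and 0 without _x_at and _s_at probe sets; without 1 array it was 0 to 1.

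The 1 higher difference became 2 as deposited and with no filter, 0 at an adjusted p under 0.01 and with a 60th percentile filter, 0 without probe sets past the filter on Rif1 shRNA arrays only (added after the data were seen), and 3 with several-gene probe sets (0 to 2 without 1 array). The 1 lower difference became 0 with the replicate block, at an adjusted p under 0.01 and without _x_at and _s_at probe sets, and 3 with several-gene probe sets (0 to 2). The sample titles number the replicates and do not say whether the numbers pair the arrays. Deviations of same-numbered arrays correlated at -0.339 in J1 and 0.194 in F1. With 2 arrays per group this cannot decide whether they were paired.

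The linker median in J1, 0.20, was 0.17 with normalization within each setting, 0.25 with no offset, 0.13 with a larger offset and 1.18 with the 60th percentile filter (0.17 to 0.32 without 1 array). In F1, 0.05, it was 0.13 as deposited, 0.83 with that filter and -0.0007 with 1 value per gene (-0.0033 to 0.10 without 1 array). The core median in J1, 0.38, was 0.12 with no filter and 0.23 without _x_at and _s_at probe sets (0.28 to 0.48). In F1, 0.44, it was 0.56 as deposited, 0.55 with no offset and 0.32 with a larger offset (0.34 to 0.46). The variant median in J1, 0.05, was 0.081 as deposited and turned to -0.0058 without the first J1 control (0.057 at most). In F1, 0.07, it turned to -0.0926 with 1 value per gene and was 0.0773 without _x_at and _s_at probe sets (0.0326 to 0.0684). The cause was not tested.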

Other observations

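Some histone probe sets stood far apart between the J1 and F1 arrays whatever the shRNA. Macroh2a3 at 1421613_at read 281 to 394 on the 4 J1 arrays and 14.2 to 19.1 on the 4 F1 arrays. H3f3a read 113 to 140 in J1 and 378 to 549 in F1, and H2bc18 read 55.4 to 80.6 in J1 and 15.1 to 17.6 in F1. The F1 arrays had the higher trimmed mean signal (301 to 309 against 193 to 197), and line, strain, duration and RNA quality cannot be told apart in this contrast.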
